A study of Mus musculus with 48 samples.

Results

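Ngfr, which encodes the p75 neurotrophin receptor, and the genes of 4 secreted neurotrophic factors, Bdnf, Gdnf, Lif and Clcf1, were followed through mechanical stretching of C2C12 cells. These 5 genes, of 47480 gene symbols counted, were picked for how they responded to stretch in these same libraries, so their stretch responses are given as a description and carry no test. C2C12 is an established mouse myoblast line that fuses into multinucleated myotubes when serum is lowered. Myoblasts were stretched 2 days after plating and differentiated cells after 4 days of differentiation, both on collagen-coated flexible plates that were pulled cyclically and in all directions of the membrane for 1, 3 or 6 h. Non-stretched control cells of the same stage and time sat on the same kind of plate. All groups were the unmodified line, with no allele or drug added, and each of the 12 groups (2 stages, 3 times, stretched or not) held 4 libraries, 48 in all.

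The 4 libraries of a group came from 2 experiments, with replicates 7 and 8 in one and replicates 9 and 10 in the other. The exception was the differentiated group stretched for 1 h, which had replicates 4, 7, 8 and 9, and replicate 4 was the only library of its experiment. That library stood apart in several of the genes below, so values for its group are given with and without it. Library totals ran from 48447318 to 77080730 counts, so that 1 count was worth 0.013 to 0.0206 CPM, the counts scaled to library size. Levels below are CPM after scaling all 48 libraries together. Muscle differentiation genes separated the stages as labelled by their summed level, 11700 to 14300 CPM in differentiated cells against 10.7 to 21.5 CPM in myoblasts. Of the 8 listed markers, 8 averaged over 1 CPM in differentiated cells and 6 did so in myoblasts. The sum of the 5 listed myoblast markers did not set myoblasts apart by a higher level. It was 1040 to 1290 CPM in myoblasts and 3450 to 4100 CPM in differentiated cells. Of these, Myf5 had a lower median in differentiated cells (21.5 against 45.3 CPM), while Myod1, Pax7, Des and Cdh15 had higher ones. Of 6 Schwann cell and glial markers and 6 neuron markers, 1 of each list exceeded 1 CPM on average in either stage, namely Erbb3 and Nefl. Erbb3, a neuregulin receptor, ranged from 14.3 to 21.9 CPM in myoblasts and from 265 to 375 CPM in differentiated cells. Nefl, the neurofilament light chain, ranged from 512 to 824 CPM in myoblasts and from 4.18 to 21.8 CPM in differentiated cells. The defining markers Sox10, Snap25, Syt1, Rbfox3 and Elavl4 did not exceed 0.0572 CPM in any library. The part of Erbb3 and Nefl in the stage differences below was not tested. In bulk RNA, fewer cells of a type and less RNA per cell cannot be told apart.

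Neurotrophins are growth factors that keep neurons alive and shape their synapses. They signal through Trk receptor kinases and through p75, which binds mature neurotrophins and, together with sortilin, their uncleaved precursors. GDNF binds a GFRα co-receptor and signals through the kinase Ret or through the adhesion molecule NCAM, and in muscle it is known as a survival factor for motor neurons and as a regulator of their terminals. LIF and the cytokine encoded by Clcf1 belong to the IL-6 family, whose members share the receptor chain gp130 (Il6st). Both signal through gp130 and the LIF receptor to JAK kinases and STAT3. Skeletal muscle is a known source of BDNF, GDNF and LIF, and p75 is found on myoblasts as well as on neurons and Schwann cells.

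On the mm10 build, the gene bodies lie at chr11:95568818-95587735 on the minus strand for Ngfr, chr2:109674700-109727007 on the plus strand for Bdnf, chr15:7810846-7837575 on the plus strand for Gdnf, chr11:4257557-4272514 on the plus strand for Lif and chr19:4214238-4223490 on the plus strand for Clcf1. An annotated protein-coding gene, AC109138.7, overlaps Clcf1 on the same strand, and 7.33% of the 31-base stretches of Clcf1 exons occur in it, so Clcf1 counts are the least certain of the 5. The antisense gene Gm45346 overlaps Bdnf. For the other 4 genes, at most 1.26% of 31-base stretches were shared with another gene.

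RefSeq start sites on GRCm38.p6 (the mm10 assembly) were found for 4 of the 5 genes. The 4 windows printed here, each the 250 bases before a start site, belong to the genes whose levels differed most with stretch. The Bdnf and Gdnf windows are those, of 7 and 2 such windows per gene, that hold a cyclic AMP response element (CRE) half-site. Capitals mark matches on either strand to the CRE (TGACGTCA), its half-site (TGACG), AP-1 (TGANTCA), EGR (GCGTGGGCG), STAT (TTCNNNGAA) and TEAD (CATTCC) motifs or to the CArG box of serum response factor. A full CRE also holds its half-site.
Ngfr, chr11:95587699-95587948, minus strand: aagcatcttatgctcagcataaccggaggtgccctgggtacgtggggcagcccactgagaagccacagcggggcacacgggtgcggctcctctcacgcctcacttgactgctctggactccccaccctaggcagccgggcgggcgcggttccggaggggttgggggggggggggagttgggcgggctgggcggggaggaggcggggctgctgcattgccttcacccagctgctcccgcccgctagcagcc
Bdnf, chr2:109692186-109692435, plus strand: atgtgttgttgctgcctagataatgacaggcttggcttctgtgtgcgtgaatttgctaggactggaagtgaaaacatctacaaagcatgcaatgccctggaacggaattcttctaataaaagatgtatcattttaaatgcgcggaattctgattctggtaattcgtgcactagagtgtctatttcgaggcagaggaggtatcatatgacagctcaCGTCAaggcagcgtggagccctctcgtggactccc
Gdnf, chr15:7809798-7810047, plus strand: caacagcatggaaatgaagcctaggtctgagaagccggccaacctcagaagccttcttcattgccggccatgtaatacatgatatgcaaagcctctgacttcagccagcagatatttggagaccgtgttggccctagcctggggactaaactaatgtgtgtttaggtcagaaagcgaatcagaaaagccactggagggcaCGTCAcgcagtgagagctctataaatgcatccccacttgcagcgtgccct
Lif, chr11:4257318-4257567, plus strand: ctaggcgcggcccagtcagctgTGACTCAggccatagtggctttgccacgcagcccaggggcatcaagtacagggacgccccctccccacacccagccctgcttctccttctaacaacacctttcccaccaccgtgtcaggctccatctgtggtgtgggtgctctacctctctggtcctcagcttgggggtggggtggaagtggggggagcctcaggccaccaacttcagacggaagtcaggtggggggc
The Ngfr window held none of the 7 motifs. The Bdnf and Gdnf windows each held 1 CRE half-site, beginning 35 and 50 bases before the start site, and the Lif window held 1 AP-1 match at 228 bases. Because the Bdnf and Gdnf windows were picked for the half-site, its presence there is not read against the shares below. Among 32851 windows of the same length over all RefSeq genes, 17.8% held the half-site, 1.55% the full CRE, 6.75% the AP-1 motif, 12.6% the TEAD motif, 7.02% the STAT motif, 1.47% the CArG box and 0.536% the EGR motif. Of the other Bdnf windows, the one starting at chr2 position 109674450 held a STAT match, the one at 109676782 an AP-1 and a TEAD match and the one at 109722671 a TEAD match. These are matches of letters, and the deposited counts, which are summed per gene, do not show which of the start sites was used.

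Ngfr showed the largest stretch difference of the 5 genes, and it was seen in myoblasts. After 6 h, non-stretched myoblast replicates 7, 8, 9 and 10 had 14.15, 12.97, 12.32 and 12.23 CPM, and stretched replicates 7, 8, 9 and 10 had 31.3, 34.08, 29.96 and 30.75 CPM. Every stretched library exceeded every control, and the lowest stretched library held 1843 counts. The means were 12.9 ± 0.886 and 31.5 ± 1.79 CPM (SD, n = 4 each), a 2.44-fold higher level in stretched cells and a fitted log2 difference of 1.30 (SE 0.0545).

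At 3 h the Ngfr difference was smaller. The 4 non-stretched replicates had 10.64, 10.1, 9.842 and 10.36 CPM, and the stretched ones 14.26, 14.94, 17.23 and 18.5 CPM, in the same order. The groups again did not overlap, and the fitted log2 difference was 0.65 (SE 0.0749). The 2 experiments differed in size here, with a 1.41-fold higher level in replicates 7 and 8 and a 1.77-fold higher level in replicates 9 and 10.

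At 1 h the non-stretched myoblasts had 10.06, 9.466, 9.923 and 10.06 CPM of Ngfr and the stretched ones 11, 12.32, 10.88 and 11.43 CPM. The stretched libraries were all higher, by 1.16-fold in the means, with a fitted log2 difference of 0.21 (SE 0.0559). The Ngfr difference thus grew from 1 h to 3 h to 6 h, whereas in myoblasts the 4 ligand genes had their largest absolute log2 differences at 1 h or 3 h. The non-stretched level of Ngfr at 6 h, 12.2 to 14.2 CPM, also lay above its non-stretched levels at 1 h and 3 h, 9.47 to 10.6 CPM.

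Ngfr was close to the limit of detection in differentiated cells. The 24 differentiated libraries held 1 to 12 Ngfr counts each, too few to pass the filter on low counts. At this depth a stretch difference was neither resolved nor shown to be absent. Non-stretched replicates 7 to 10 at 6 h held 6, 4, 1 and 2 counts and stretched replicates held 5, 6, 12 and 8 counts, so the groups overlapped. The same held at 1 h, with 1 to 7 counts in controls and 3 to 6 in stretched cells, and at 3 h, with 2 to 8 and 3 to 12 counts. Stretched means were 1.16, 1.39 and 2.41 times the controls at 1, 3 and 6 h. At 6 h the ratio was 1.08 in replicates 7 and 8 and 7.31 in replicates 9 and 10.

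**Figure D1:**
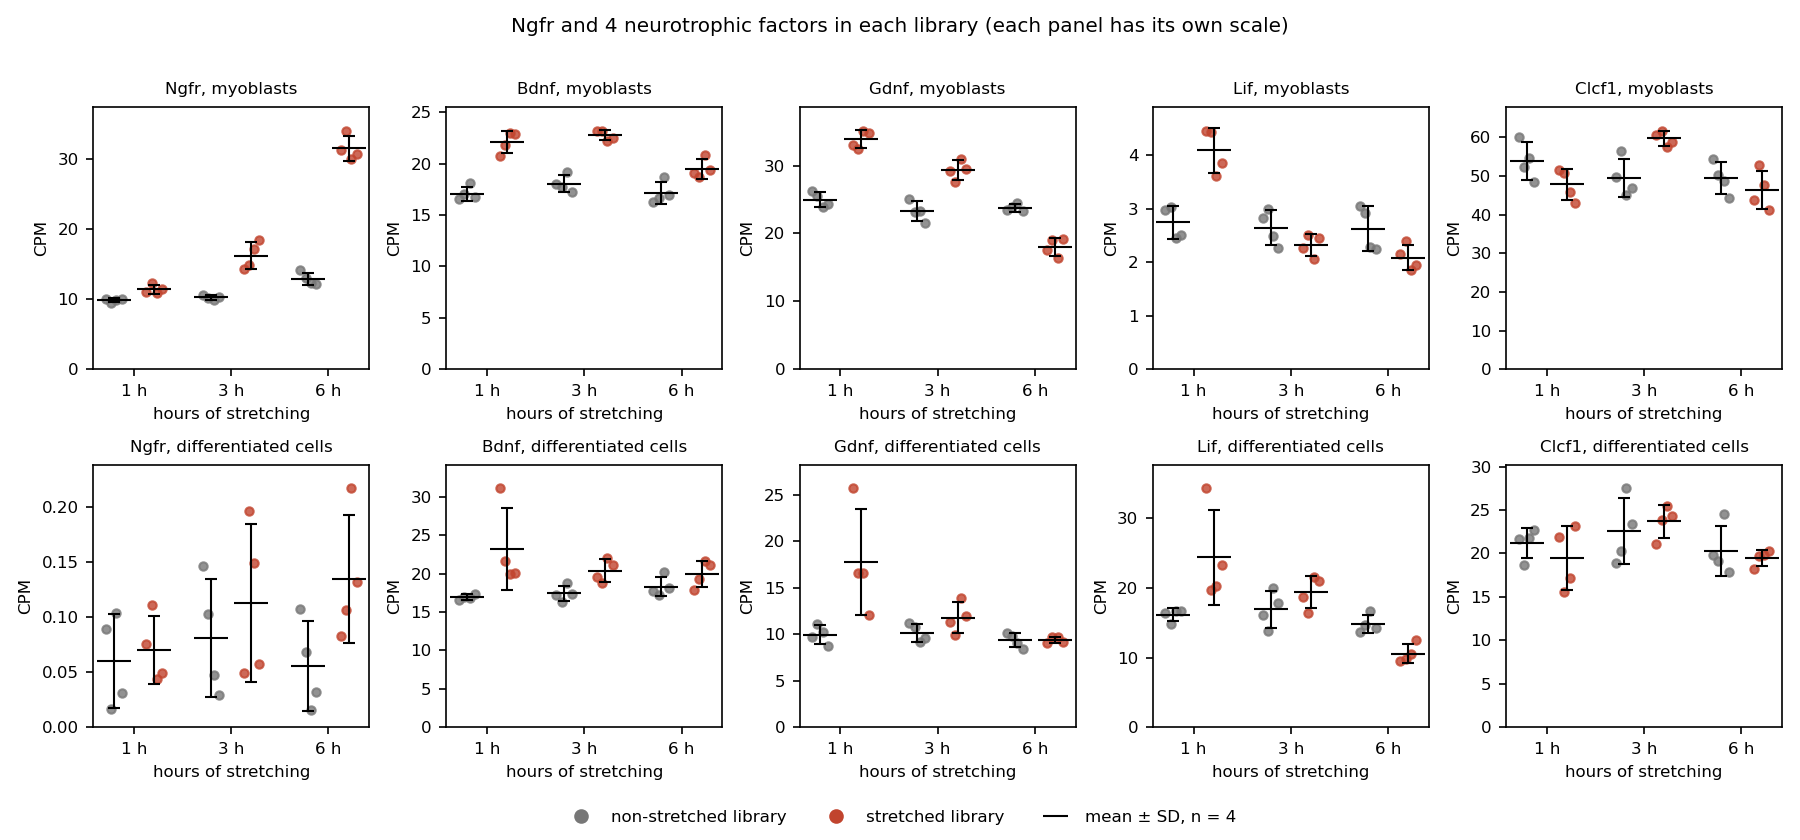
CPM (vertical axis, linear from 0, a scale of its own in each panel) of Ngfr, Bdnf, Gdnf, Lif and Clcf1 in every library after 1, 3 or 6 h, with myoblasts above and differentiated cells below. Grey points are non-stretched and red points stretched libraries, black marks are means and SD of 4 libraries; stretched myoblasts at 6 h held 30.0 to 34.1 CPM of Ngfr against 12.2 to 14.2 CPM in controls, while differentiated cells stayed below 0.22 CPM.

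Bdnf, a ligand of the receptor kinase TrkB whose precursor binds p75, was modestly higher in stretched cells of both stages. At 1 h, non-stretched myoblast replicates 7, 8, 9 and 10 had 16.53, 17.02, 18.07 and 16.72 CPM and stretched ones had 20.71, 21.84, 22.95 and 22.92 CPM. The groups did not overlap, and the fitted log2 difference was 0.37 (SE 0.0459). In myoblasts at 3 h the stretched libraries (22.3 to 23.2 CPM) were again all above the controls (17.3 to 19.2 CPM), with a log2 difference of 0.33 (SE 0.0395). At 6 h the groups met, with 16.3 to 18.67 CPM in controls and 18.66 to 20.9 CPM in stretched cells, and the log2 difference was 0.20 (SE 0.0524).

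In differentiated cells at 1 h, the non-stretched replicates 7, 8, 9 and 10 had 16.55, 16.99, 16.9 and 17.39 CPM of Bdnf. The stretched replicates 4, 7, 8 and 9 had 31.13, 21.71, 20.01 and 20.11 CPM. All stretched libraries were higher, but replicate 4 stood well above the other 3. The fitted log2 difference was 0.45 (SE 0.129) with it and 0.28 without it. At 3 h the groups still did not overlap (16.3 to 18.8 CPM against 18.78 to 22.1 CPM, log2 difference 0.23, SE 0.0606); the highest control, replicate 9 at 18.76 CPM, was just under the lowest stretched library, replicate 8 at 18.78 CPM. At 6 h they overlapped, with a log2 difference of 0.12 (SE 0.0697).

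Gdnf changed sign over time in myoblasts. At 1 h, non-stretched replicates 7, 8, 9 and 10 had 26.19, 25.54, 23.86 and 24.31 CPM and stretched ones had 33.03, 32.45, 35.16 and 34.79 CPM. Stretched cells thus held 1.36 times the control level, with a log2 difference of 0.44 (SE 0.0403). At 3 h they were still above, at 27.5 to 31.03 CPM against 21.6 to 25.1 CPM (log2 difference 0.32, SE 0.0458).

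At 6 h the order of the Gdnf groups was the opposite. Non-stretched replicates 7, 8, 9 and 10 had 23.44, 23.85, 24.5 and 23.27 CPM, and stretched ones had 17.51, 18.99, 16.38 and 19.15 CPM. Every stretched library lay below every control, with a log2 difference of -0.38 (SE 0.0483), and both experiments showed it, at 0.772 times the control level in replicates 7 and 8 and 0.744 times in replicates 9 and 10. The controls stayed between 21.6 and 26.2 CPM over the 3 times, so the change of order lay in the stretched groups.

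In differentiated cells the Gdnf difference was seen at 1 h. Non-stretched replicates 7, 8, 9 and 10 had 9.681, 11.15, 10.21 and 8.767 CPM, and stretched replicates 4, 7, 8 and 9 had 25.71, 16.65, 16.55 and 12.1 CPM. The groups did not overlap, and replicate 4 was again the highest. The log2 difference was 0.83 (SE 0.192) with replicate 4 and 0.60 without it. At 3 h the groups overlapped (log2 difference 0.22, SE 0.101), and the stretched level was 1.39 times the control in replicates 9 and 10 but 0.966 times in replicates 7 and 8. At 6 h the means were 9.37 ± 0.776 CPM in controls and 9.39 ± 0.362 CPM in stretched cells (SD, n = 4 each).

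Lif, which encodes leukemia inhibitory factor, was higher after 1 h of stretching in both stages. In myoblasts at 1 h the non-stretched replicates 7, 8, 9 and 10 had 2.979, 3.034, 2.455 and 2.514 CPM and the stretched ones 4.466, 4.445, 3.611 and 3.855 CPM. The groups did not overlap, the libraries held 152 to 254 counts, and the log2 difference was 0.57 (SE 0.107). At 3 h and 6 h the groups overlapped, with log2 differences of -0.20 (SE 0.111) and -0.32 (SE 0.131).

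In differentiated cells at 1 h, Lif measured 16.34, 14.8, 16.69 and 16.76 CPM in non-stretched replicates 7, 8, 9 and 10. It measured 34.32, 19.68, 20.25 and 23.35 CPM in stretched replicates 4, 7, 8 and 9. All stretched libraries were higher, and the log2 difference was 0.59 (SE 0.158) with replicate 4 and 0.39 without it. At 3 h the groups overlapped (log2 difference 0.20, SE 0.114).

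At 6 h the order of the Lif groups in differentiated cells was reversed. The controls had 13.7, 14.67, 16.72 and 14.25 CPM and the stretched cells 9.528, 9.755, 10.47 and 12.49 CPM in replicates 7 to 10. The stretched libraries were all below the controls, at 0.712 times their mean, with a log2 difference of -0.49 (SE 0.0924). The stretched level was 0.68 times the control level in replicates 7 and 8 and 0.741 times in replicates 9 and 10.

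Clcf1, which encodes cardiotrophin-like cytokine factor 1, varied least with stretch. In myoblasts at 3 h the non-stretched replicates 7, 8, 9 and 10 had 49.75, 56.38, 45.1 and 46.84 CPM and the stretched ones 60.67, 61.72, 57.42 and 58.89 CPM. The groups did not overlap there, and the log2 difference was 0.26 (SE 0.0529). In the other 5 comparisons the groups overlapped, with log2 differences from -0.18 (SE 0.0713, myoblasts at 1 h) to 0.07 (SE 0.105, differentiated cells at 3 h).

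Counting groups of 4 against 4 that did not overlap, stretched libraries were above controls for 4 of the 5 genes in myoblasts at 1 h and 4 of 5 at 3 h, and at 6 h for 1 gene above and 1 below. In differentiated cells they were above for 3 of 5 at 1 h and 1 of 5 at 3 h, and below for 1 of 5 at 6 h. Over all tested genes, the share whose groups did not overlap, above and below the controls, was 5.32% and 8.03% in myoblasts at 1 h, 17.1% and 13.7% at 3 h, and 12.4% and 16.3% at 6 h. In differentiated cells it was 2.46% and 3.91% at 1 h, 12.5% and 13.5% at 3 h, and 14.3% and 12.2% at 6 h. By a stricter rule, a gene was called changed at a Benjamini-Hochberg adjusted p under 0.05 in edgeR's quasi-likelihood test and an absolute log2 fold change of at least 0.58. In myoblasts 0.254% of tested genes were called higher and 0.997% lower at 1 h, 0.459% and 1.25% at 3 h, and 1.35% and 0.823% at 6 h. In differentiated cells the shares were 0.0901% and 0.18% at 1 h, 0.89% and 0.741% at 3 h, and 0.518% and 1.52% at 6 h. The 5 genes were picked on these contrasts, so nothing is read from their count against these shares.

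At 3 h the marker list led by Erbb3 was lower in stretched cells of both stages, and the list led by Nefl in myoblasts. Over all genes at 3 h, 13.7% in myoblasts and 13.5% in differentiated cells lay below controls without overlap. In myoblasts the summed Schwann cell and glial markers stood at 20.2 to 22.7 CPM in controls and 15.1 to 16.2 CPM in stretched cells, and the summed neuron markers at 591 to 792 and 512 to 584 CPM. In differentiated cells the glial list stood at 327 to 376 CPM in controls and 266 to 310 CPM in stretched cells, while the neuron list overlapped. At 6 h in differentiated cells the glial list stood at 334 to 357 and 293 to 334 CPM, and in the other comparisons both lists overlapped. A list of 4 endothelial markers summed to under 1 CPM in every library. In myoblasts at 6 h it stood at 0.389 to 0.549 CPM in controls and 0.598 to 0.9 CPM in stretched cells. In differentiated cells at 1 h it stood at 0.769 to 0.955 and 0.54 to 0.738 CPM. The part of these lists in the values of Ngfr, Bdnf, Gdnf, Lif and Clcf1 at these times was not tested.

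**Figure D2:**
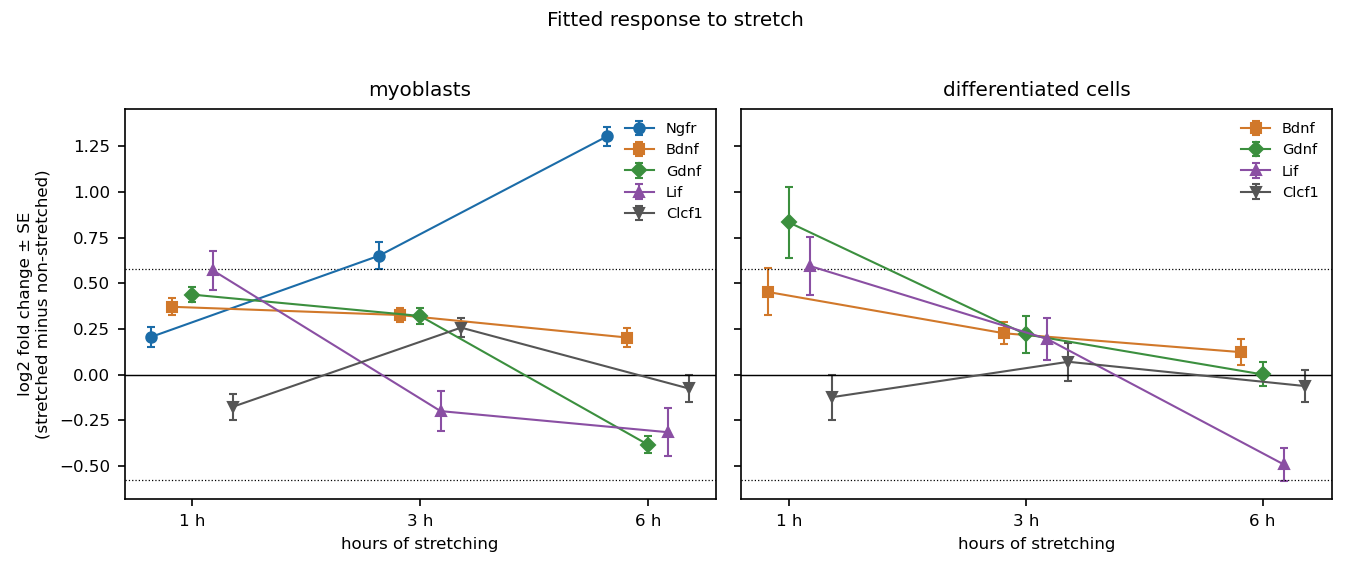
Fitted log2 fold change (vertical axis, stretched minus non-stretched, bars are SE, n = 4 against 4) of the 5 genes by hours of stretching, in myoblasts (left) and differentiated cells (right). Dotted lines mark 0.58 on either side of 0; Ngfr, shown in myoblasts where it passed the count filter, went from 0.21 to 1.30, while Gdnf went from 0.44 to -0.38 in myoblasts and Lif from 0.59 to -0.49 in differentiated cells.

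Without stretch, the levels of Ngfr, Gdnf, Lif and Clcf1 differed strongly between the stages, while that of Bdnf was alike in both. The genes were not picked on this contrast. It used the 12 non-stretched libraries of each stage in 1 edgeR quasi-likelihood fit with time as a covariate. The stages were cultured and harvested in different experiments, so stage and experiment cannot be told apart, and much of the transcriptome differed, with 26.4% called higher and 24.1% called lower in differentiated cells. In CPM per kilobase of exon (a scale that allows levels to be compared between genes), the order in myoblasts was Clcf1 at 13.4 ± 1.25, Gdnf at 6.54 ± 0.334, Ngfr at 3.20 ± 0.438, Bdnf at 2.80 ± 0.146 and Lif at 0.615 ± 0.0744 (SD, n = 12). In this order the ranges of Ngfr (2.75 to 4.11) and Bdnf (2.62 to 3.09) overlapped, and those of the other neighbours did not. In differentiated cells the order was Clcf1 at 5.61 ± 0.741, Lif at 3.67 ± 0.427, Bdnf at 2.83 ± 0.17, Gdnf at 2.68 ± 0.245 and Ngfr at 0.0191 ± 0.0125. There the ranges of Lif and Bdnf (3.15 to 4.60 and 2.62 to 3.25) and of Bdnf and Gdnf (2.30 to 3.05 for Gdnf) overlapped.

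Lif was higher in differentiated cells by 2.55 on the log2 scale (SE 0.0657, edgeR adjusted p = 4.92e-23), with 13.7 CPM or more in each of 12 differentiated libraries and 3.05 CPM or less in each of 12 myoblast libraries. Gdnf was lower in differentiated cells by 1.32 on the log2 scale (SE 0.04, adjusted p = 1.93e-21) and Clcf1 by 1.28 (SE 0.0603, adjusted p = 4.48e-17). For both, the stages did not overlap per library. Bdnf stood at 17.4 ± 0.91 CPM before and 17.6 ± 1.06 CPM after differentiation, a log2 difference of -0.01 (SE 0.0313, adjusted p = 0.661). Ngfr went from a median of 643 counts per myoblast library (505 to 910) to a median of 3.5 counts (1 to 8). It entered the fit through its myoblast level alone, so its log2 difference of -7.41 is given as a description.

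The receptors and partner ligands of the same families were read in the same non-stretched libraries. Of 88 listed pathway genes, 74 were tested and 43 differed between stages, 29 higher and 14 lower in differentiated cells, with a median log2 difference of 0.199 over the 74. Over all genes, 26.4% were called higher and 24.1% lower, the shares to set beside each list below. Among neurotrophins and their receptors, 3 of 6 tested were higher. Sort1, the p75 partner sortilin, was higher by 4.27 on the log2 scale (SE 0.0418, edgeR adjusted p = 3.28e-32) and rose from 0.364 to 7.17 CPM per kilobase. Sorcs2, another sortilin-family receptor, was higher by 1.75 and the neurotrophin-4 gene Ntf5 by 1.41. The neurotrophin receptor kinase genes Ntrk2 and Ntrk3 were near or under detection, with 0 or 1 count of Ntrk2 and 7 to 29 counts of Ntrk3 in each non-stretched library. Sorcs1 had a log2 difference of -0.19 (adjusted p = 0.198).

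Among GDNF family ligands and receptors, 4 of 8 tested genes were higher and 2 lower in differentiated cells. Gfra1, the preferred co-receptor of GDNF, was higher by 1.91 on the log2 scale (SE 0.0543, edgeR adjusted p = 4.29e-22), and Ncam1 by 2.46 (SE 0.0379, adjusted p = 5.62e-28), reaching 77.3 CPM per kilobase. Gfra4, the persephin co-receptor, was higher by 2.22 and Artn, the artemin gene, by 1.78. The signalling kinase gene Ret was lower by 2.43 (SE 0.1, adjusted p = 2.08e-18), from 140 to 238 counts per myoblast library to 19 to 47. Gdf15, a distant family member, was lower by 1.51. Gfra2, the neurturin co-receptor, and Nrtn, the neurturin gene, had log2 differences of 0.04 and -0.09 (adjusted p = 0.538 and 0.599).

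Among IL-6 family cytokines and receptors, 7 of 11 tested were higher and 2 lower. Both chains of the LIF receptor were higher in the stage where Lif itself was higher, Lifr by 1.08 (SE 0.0429, edgeR adjusted p = 9.99e-19) and Il6st by 0.81 (SE 0.0235, adjusted p = 7.1e-22). Osmr, the oncostatin M receptor, was higher by 1.56, Il11ra1 by 1.32 and Ctf1, the cardiotrophin-1 gene, by 1.16. Il6, also counted as higher, held 0 to 16 counts per myoblast library and 12 to 39 per differentiated library. It entered the fit through its differentiated level alone, so its log2 difference of 1.55 is given as a description. Cntfr, the ciliary neurotrophic factor receptor gene, was lower by 0.91 (SE 0.12, adjusted p = 9.27e-08), at 18 to 51 counts per differentiated library. Il6ra was lower by 0.75. Cntf and Il11 had log2 differences of 0.03 and 0.45 (adjusted p = 0.661 and 1.95e-05), the latter under the fold threshold.

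Of the downstream lists, 5 of 17 tested p75 co-receptors, adaptors and proteases were higher and 5 lower, 2 of 9 JAK-STAT3 genes were higher and 2 lower, 3 of 10 Trk and Ret adaptors were higher and 2 of 4 proneurotrophin proteases were higher. Beside 26.4% higher and 24.1% lower over all genes, nothing is read from these counts about the lists. Stat3, the transcription factor downstream of LIF, was higher by 1.93 (SE 0.0192, edgeR adjusted p = 4.23e-32), and the feedback inhibitor gene Socs1 was lower by 2.29 (SE 0.0643, adjusted p = 3.24e-22). Of genes induced together with Bdnf by calcium and CREB in neurons, 3 of 9 were higher and 2 lower. Among the genes counted in these lists, Bex1 held 0 or 1 count per myoblast library. Vgf and Rtn4r held medians of 5 and 9 counts per differentiated library. Each of these entered the fit through the other stage alone, so their calls are descriptions.

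**Figure D3:**
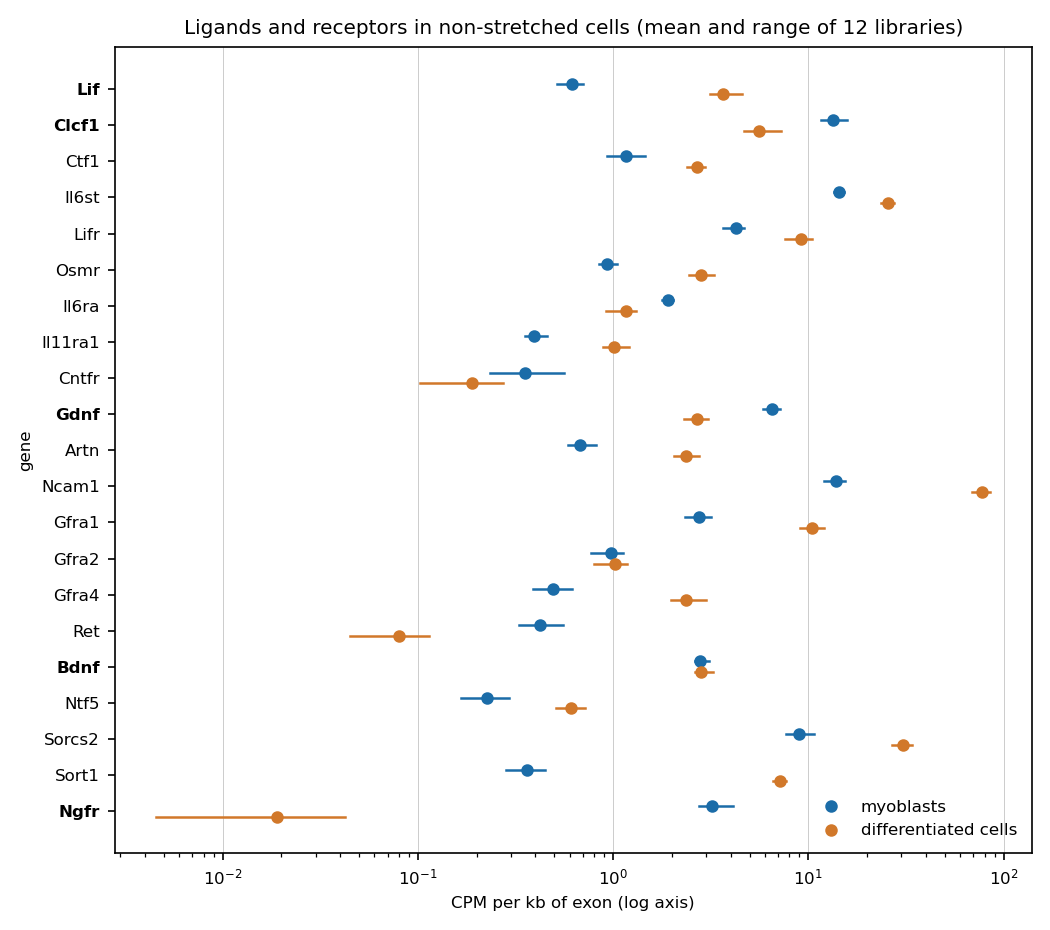
CPM per kilobase of exon (horizontal log axis) of ligand and receptor genes of the 3 families in non-stretched cells, with the 5 genes described here in bold. Points are means and lines the range of 12 libraries in myoblasts (blue) and differentiated cells (orange); Ngfr stood at 3.20 against 0.0191 and Lif at 0.615 against 3.67, while the points of Bdnf, 2.80 and 2.83, lie almost on each other.

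The listed pathway genes were also read for stretch itself, and their counts are given beside the shares called over all genes. In myoblasts at 1 h, 4 of 72 tested were called (3 higher and 1 lower, beside 0.254% and 0.997% of all genes), all from the list of genes induced together with Bdnf by calcium and CREB in neurons. The lists were chosen with earlier results of these data known, and the paper itself names Fos, Egr1 and Nr4a1 as responding to 1 h of stretch. That the calls fall in 1 list is therefore not read as a result. Fos, an immediate early AP-1 subunit, measured 1.504, 1.596, 1.514 and 1.29 CPM in non-stretched replicates 7 to 10 and 5.9, 5.81, 7.074 and 7.563 CPM in stretched ones. It rose by 2.16 on the log2 scale (SE 0.109, edgeR adjusted p = 1.51e-06). Egr1, an immediate early zinc finger factor, rose by 1.40 (SE 0.0346, adjusted p = 2.09e-09) and Nr4a1, an orphan nuclear receptor, by 1.08 (SE 0.0821, adjusted p = 4.28e-05). Arc, an activity-regulated gene of synapses, fell by 0.60 (SE 0.0926, adjusted p = 0.00285), at 6.97 to 8.20 CPM in controls and 4.40 to 5.69 CPM in stretched cells. The Arc call was lost, through the fold threshold, when control replicate 8 or stretched replicate 9 or 10 was dropped, with log2 values between -0.67 and -0.53 over all alternatives. The median log2 fold change over the 72 was 0.02, beside a median near 0 over all genes.

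At 3 h in myoblasts 1 of 72 was called, beside 0.459% higher and 1.25% lower over all genes. Egr1, at 121.5 ± 8.89 CPM in controls and 79.1 ± 5.86 CPM in stretched cells (SD, n = 4 each), fell by 0.63 on the log2 scale (SE 0.0519, edgeR adjusted p = 4.75e-06), the opposite direction to 1 h. At 6 h again 1 of 72 was called, beside 1.35% higher and 0.823% lower over all genes. This was Vgf, a secreted neuropeptide precursor gene, with 20 to 36 counts in controls and 40 to 60 in stretched libraries. Its log2 fold change was 0.64 (SE 0.217, edgeR adjusted p = 0.0472). The Vgf call held in 6 of 15 alternatives, with adjusted p from 0.0152 to 0.129, and was lost, among others, on dropping control replicate 7, 9 or 10, or replicate 7, 8 or 9 of the stretched cells.

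In differentiated cells at 1 h, 1 of 74 tested was called, beside 0.0901% higher and 0.18% lower over all genes. Fos measured 6.943, 5.565, 5.505 and 5.777 CPM in non-stretched replicates 7 to 10 and 88.05, 20.21, 22 and 31.03 CPM in stretched replicates 4, 7, 8 and 9. All stretched libraries were higher, and replicate 4 was the highest, as it was for Bdnf, Gdnf and Lif. The log2 fold change was 2.76 (SE 0.453, edgeR adjusted p = 0.0302). The call was lost when any one of the 4 non-stretched libraries or stretched replicate 8 was left out, with adjusted p up to 0.124. Without stretched replicate 4, 3 of the listed genes were called, the 3 immediate early genes that rose in myoblasts. Their log2 fold changes were then 2.04 for Fos (edgeR adjusted p = 0.00019), 0.88 for Egr1 (adjusted p = 7.14e-06) and 1.18 for Nr4a1 (adjusted p = 2.12e-06). Whether replicate 4's experiment contributed to these values was not tested, since that experiment held no other library.

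At 6 h in differentiated cells 1 of 73 was called, beside 0.518% higher and 1.52% lower over all genes. This was the GDNF family co-receptor gene Gfra2. Non-stretched replicates 7, 8, 9 and 10 had 3.661, 3.935, 2.842 and 3.538 CPM and stretched ones had 2.427, 2.065, 1.934 and 2.403 CPM. Gfra2 fell by 0.66 on the log2 scale (SE 0.123, edgeR adjusted p = 0.00442), and the call held in 15 of 15 alternatives. At 3 h its log2 fold change was -0.57 (adjusted p = 0.00999), just under the fold threshold. Artn, which encodes the GFRα3 ligand artemin, had a log2 fold change of -0.58 at 6 h (SE 0.107, adjusted p = 0.00434), at the fold threshold but not past it. The main GDNF co-receptor gene Gfra1 had log2 fold changes of 0.42 at 3 h (adjusted p = 0.00742) and -0.03 at 6 h (adjusted p = 0.761), and Ret had 0.51 and 0.35 (adjusted p = 0.166 and 0.354). The LIF receptor gene Lifr had log2 fold changes between -0.07 and 0.07 in the 6 comparisons.

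**Figure D4:**
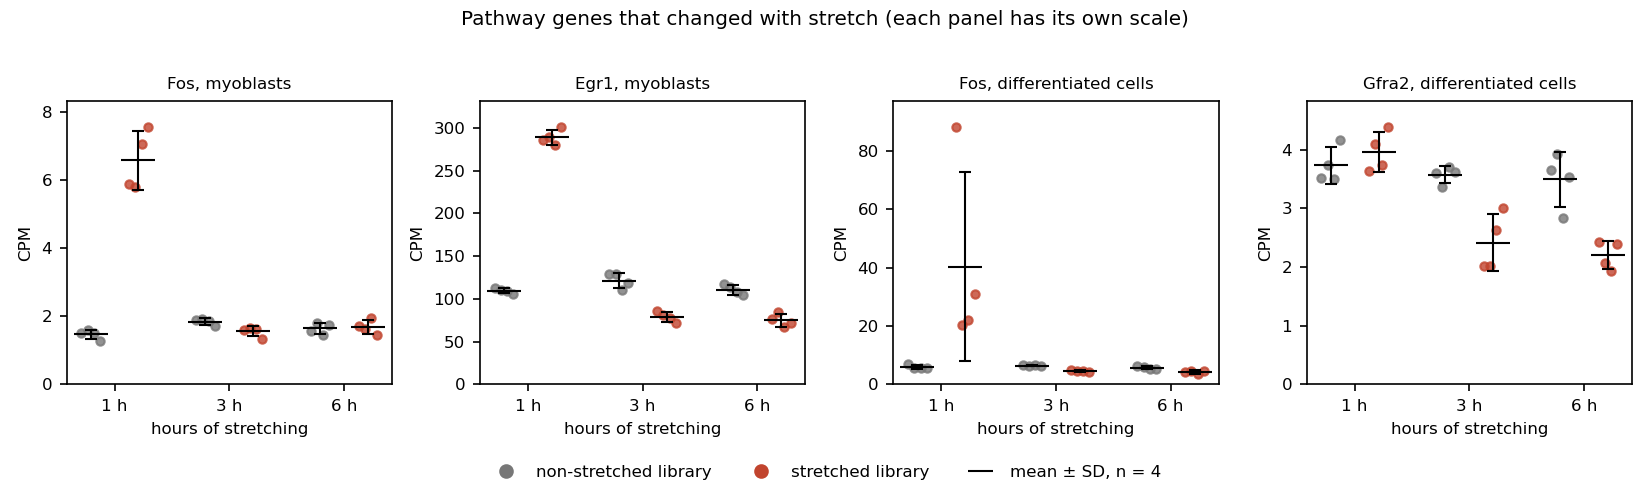
CPM (vertical axis, linear from 0, a scale of its own in each panel) of Fos and Egr1 in myoblasts and of Fos and Gfra2 in differentiated cells after 1, 3 or 6 h. Grey points are non-stretched and red points stretched libraries, black marks are means and SD of 4 libraries; in differentiated cells at 1 h, 1 stretched library holds 88.1 CPM of Fos and the other 3 hold 20.2 to 31.03 CPM.

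The time courses of the 5 genes were compared with each other and with other genes over the 12 group means of log2 CPM, with each stage centred on its own mean. The points share libraries between genes, so the coefficients are descriptions. Gdnf and Lif were the most alike pair (Pearson r = 0.799), followed by Bdnf and Gdnf (r = 0.668), and Ngfr and Lif were the most opposed (r = -0.494). Of 11068 other genes, those most like Gdnf were Nfkbiz (r = 0.941), Cdc42ep3 (r = 0.94) and Mrip-ps (r = 0.932). Nfkbiz, an atypical IκB protein gene, had log2 fold changes of 0.47 in myoblasts at 1 h, -0.28 at 6 h and 0.95 in differentiated cells at 1 h. Those most like Lif were Metrn (r = 0.961), Pde4d (r = 0.957) and Ier2 (r = 0.945), of which Ier2, an immediate early gene, had log2 fold changes of 0.49 and -0.29 in myoblasts and 0.88 and -0.34 in differentiated cells at 1 h and 6 h.

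Bdnf was most like Scaf8 (r = 0.949), Atxn2l (r = 0.936) and Kansl1 (r = 0.925), and Clcf1 most like Ccdc9 (r = 0.95), Ell (r = 0.932) and Mbtd1 (r = 0.918). Ngfr was most like Mfsd5 (r = 0.963), Max (r = 0.954) and P3h2 (r = 0.953) over the 12 groups, 6 of which hold 1 to 12 Ngfr counts per library. Over the 6 myoblast groups alone, the most alike genes were Rnh1 (r = 0.997), Vps26a (r = 0.996) and Vps29 (r = 0.996). These genes followed the order of the Ngfr group means but with smaller differences, with log2 fold changes at 6 h in myoblasts of 0.34 for Rnh1, 0.35 for Vps26a and 0.21 for Vps29 against 1.30 for Ngfr.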

How the data were processed

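RNA of the 48 libraries was sequenced by the authors in paired-end runs from stranded mRNA libraries; the labels give the molecule as nuclear RNA. Per the labels and methods the authors aligned reads to mm10 with STAR and quantified them with Salmon. The deposited values are whole-number counts per gene symbol in 1 table per stage, 47480 symbols each, with no normalization.

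Groups were taken from the sample titles. Stretched and non-stretched libraries of a stage and time (4 against 4) were compared by edgeR's quasi-likelihood method (version 4.0.16, R 4.3.3), after filterByExpr (minimum count 10) and TMM scaling. Adjusted p values are Benjamini-Hochberg over all genes tested. A gene was called at adjusted p under 0.05 and an absolute log2 fold change of at least 0.58. The same test compared stages. DESeq2 1.42.0 was an alternative. The code was checked on simulated counts. CPM values used TMM factors over all 48 libraries, and lengths came from GENCODE exons. The authors' methods name DESeq2 for their calls; none of those were used here.

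The 5 genes and the gene lists were chosen with earlier results of these data known. Named besides the 5 genes are pathway genes called with stretch, tested ligands and receptors by stage, and the 3 genes with the highest correlation with each. Results of some listed genes that the rule would name are not reported here. Bex3 was matched by its older symbol Ngfrap1. One myoblast library's title and column name differ in the experiment number. The methods call the libraries of 1 experiment separate samples. Whether they were separate cultures is not given in the sources used here, so p values measure the spread between these samples, part of which may be technical. Counting limits the precision of genes with few counts.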

Additional observations from a re-analysis of the deposited data

Results flagged for a closer look

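In differentiated cells stretched for 1 h, Bdnf in replicate 4 (31.13 CPM) lay far from the other 3 libraries of its group, which spanned 20.01 to 21.71 CPM. The gap was 0.847 of the group's whole range. Of 60 groups of 4 libraries screened over the 5 genes this was the 1 set apart, and chance alone sets apart about 1 group in 20.

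Gdnf in myoblasts was above the controls in every stretched library at 1 h and 3 h and below them in every stretched library at 6 h. The log2 ratios of the group means differed by 0.839 between 1 h and 6 h and by 0.731 between 3 h and 6 h. Lif in differentiated cells was above the controls in every stretched library at 1 h and below them in every one at 6 h, and the log2 ratios differed by 1.09. These differences between times were not tested.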

How the results depend on the processing

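Of 27 stretch responses of the 5 genes, 12 values moved by more than the pooled replicate SD of log2 CPM in their 2 groups, all of them within single experiments. In replicates 7 and 8 against 9 and 10, the log2 fold change of Gdnf in myoblasts was 0.35 against 0.53 at 1 h and 0.23 against 0.42 at 3 h, and in differentiated cells -0.048 against 0.48 at 3 h and -0.10 against 0.10 at 6 h. That of Ngfr in myoblasts at 3 h was 0.49 against 0.80, and in differentiated cells at 1 h the experiment of replicates 9 and 10, with 1 stretched library (replicate 9) against 2 controls and so no spread among stretched cells, gave 0.24 for Bdnf and 0.36 for Gdnf. Dropping stretched replicate 4 from that comparison changed Bdnf from 0.45 to 0.28, Gdnf from 0.83 to 0.60 and Lif from 0.59 to 0.39, each by more than its SE but by less than that SD, which includes replicate 4. The cause was not tested. The stage differences of Gdnf, Lif and Clcf1 kept their direction and side of the threshold, and that of Bdnf stayed uncalled. Ngfr entered the stage fit through its myoblast level alone, so its stage difference is left out here.

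Without the fold threshold, pathway genes called numbered 11, 22 and 19 in myoblasts and 2, 16 and 18 in differentiated cells at 1, 3 and 6 h. Neither the share of all genes called without that threshold nor the share at an unadjusted p under 0.05 was computed. Nothing is therefore read about the pathway from these counts or from the unadjusted counts below. In myoblasts at 6 h (1 gene), DESeq2, the experiment as a covariate and the replicate block each gave 0, with 27, 26 and 26 genes at an unadjusted p under 0.05. Leaving out 1 library gave 0 to 2, with 0 by edgeR on dropping control replicate 7, 9 or 10 or replicate 9 of the stretched cells (22 or 23 genes at an unadjusted p under 0.05) and 2 without stretched replicate 8 or 10. In differentiated cells at 1 h (1 gene), DESeq2, no count filter, the experiment covariate and the replicate block each gave 3 and all 24 libraries in 1 model gave 4. Leaving out 1 library gave 0 to 3, with 0 by edgeR without any 1 non-stretched library or stretched replicate 8 (9 to 13 genes at an unadjusted p under 0.05) and 3 without stretched replicate 4. In differentiated cells at 3 h (1 gene), leaving out 1 library gave 1 to 3 (3 on dropping replicate 8 of either group or replicate 9 of the stretched cells, 2 without stretched replicate 10). At 6 h (1 gene), no filter and at least 10 counts in every library each gave 2, and leaving out 1 library gave 1 to 2 (2 on dropping control replicate 7 or 10, or replicate 8 or 10 of the stretched cells).

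Same-numbered stretched and non-stretched libraries did not deviate together throughout (correlations -0.045 to 0.152), so the numbers were not taken as pairs, and the replicate block changed no count of calls by over 1.5 times besides those given. The genes most like Ngfr over the 6 myoblast groups, an alternative chosen after seeing the data, were not those over all 12 groups. Ngfr in differentiated cells had too few counts for a fit.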
